A study of Drosophila melanogaster with 6 samples.

Results

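Chromosome 4 of Drosophila melanogaster, the small "dot" chromosome, was followed here gene by gene in ovaries whose germline overexpressed Sam-S, which encodes S-adenosylmethionine synthetase. The genes were taken by position: every row of the deposited expression table whose locus lies on chromosome 4, without ribosomal protein, ATP synthase subunit, eIF and Rab symbols. That rule left out 3 of 112 chromosome 4 rows (RpS3A, eIF4G1 and ATPsynbeta) and kept 109, out of 17457 rows in all. The rule uses position and symbol and no measured value, although earlier results of these data were known when chromosome 4 was chosen. By annotation the 109 rows were 76 protein-coding genes, 23 noncoding RNA genes, 6 pseudogenes, 1 snoRNA gene and 3 insertions of the telomeric retrotransposon HeT-A.

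The groups were 3 SamS_OE samples, in which nanos-gal4 drove a UASp-Sam-S construct, and 3 control samples, in which nanos-gal4 flies had been crossed with flies carrying the docking site without the construct. Both groups therefore carried the driver, which acts in germline cells, while RNA came from whole ovaries with their somatic follicle cells and muscle sheath. The flies crossed with the driver differed between the groups, and whether those stocks differ on chromosome 4 was not tested. The labels give neither the age of the flies nor how many were pooled, and nothing in them says that the samples came from separate cultures, so p-values measure only the spread between these samples. In whole ovaries, fewer cells of a type and less RNA per cell cannot be told apart.

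Chromosome 4 is unusual because its genes sit among transposon remnants in a chromatin that carries heterochromatin protein HP1a, and yet many of them are transcribed. The protein of Pof binds these genes as a chromosome-wide regulator, and the histone H3 lysine 9 methyltransferase Eggless, made by egg, acts on this chromosome. Histone methyltransferases take their methyl group from S-adenosylmethionine, the product of Sam-S.

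Levels are given as TPM, a level per transcript length with a fixed total per sample. Sam-S itself stood at 1518 ± 67.5 TPM in SamS_OE and 497.5 ± 14.5 TPM in control ovaries (SD, n = 3 each). The number of rows with at least 1 TPM lay between 7831 and 7911 in SamS_OE samples and between 7786 and 7842 in control samples. TPM keeps no sequencing depth, so the depth is unknown. Of the marker lists, 6 germline genes summed to 2015 to 2059 TPM in SamS_OE and 1966 to 2012 TPM in control samples. The largest part of that sum was osk, at 1041 TPM in SamS_OE and 954.6 TPM in control samples. Of the 6 genes, 3 were higher and 3 lower in SamS_OE. The 5 follicle cell genes summed to 85.8 to 104 TPM in SamS_OE and 79.0 to 95.5 TPM in control samples. The 6 muscle genes summed to 125 to 189 TPM in SamS_OE and 128 to 176 TPM in control samples. Summed levels of the 4 fat body, 4 neuron, 3 haemocyte and 4 male germline markers reached at most 0.54 TPM in any sample, and Fbp1, sa and dj were listed at 0 in all 6.

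Chromosome 4 genes were active in these ovaries, and their share of the transcripts overlapped between the groups. The 109 rows held 0.447%, 0.499% and 0.522% of all TPM in SamS_OE samples 1, 2 and 3, and 0.508%, 0.464% and 0.510% in control samples 1, 2 and 3. These ranges overlapped, and SamS_OE replicate 1 was the lowest of all. A mean of at least 1 TPM over the 6 samples was reached by 68 of the 109, or 62.4%, against 44.9% of all rows that are not among the 109. The median level of these 68 was 51.6 TPM, close to the 48.4 TPM of all 7855 rows that passed. Of the other 41, 7 were listed at 0 in every sample, and the highest of them, the noncoding RNA sphinx, averaged 0.733 TPM. A mean of 100 TPM or more was reached by 16 rows, and 29 averaged between 10 and 100 TPM and 23 between 1 and 10 TPM.

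The 56 protein-coding members that passed were long and rich in annotated transposable elements. Their median span was 10474 bp, against 2635 to 3286 bp for protein-coding genes that passed on the X and the 4 large autosome arms. An element lay wholly inside 46 of the 56 (82.1%), against 5.64% to 7.95% of genes on those other arms. The 46 genes with an element had a median level of 62.8 TPM, and the 10 without one had 76.7 TPM. The median log2 fold changes of these sets were 0.04 and -0.01, on the scale described next.

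The comparison of the groups asks which of these genes differ between SamS_OE and control ovaries. It was made with limma on log2(TPM + 1) over all 7855 rows that passed, with Benjamini-Hochberg adjustment over all of them. A row counts as changed where its adjusted p is under 0.05. The log2 fold change is SamS_OE over control, on a scale that understates the change of low genes. On chromosome 4, 2 of 68 rows changed, the pseudogenes CR32010 and CR32011, against 0.28% of all rows tested. The share was 0.921% on the X and 0% to 0.361% on the 4 large autosome arms. Of the pair, 1 was higher, where the background of all rows is 0.178%, and 1 was lower, where it is 0.102%. The higher row, CR32010, passed the minimum of 1 TPM only through the SamS_OE samples. With a minimum mean of 5 TPM it was not tested. The other 66 had log2 fold changes between -0.60 and 0.60. For 46 of the 68 the whole 95% interval lay within 0.5 of 0, so for these genes a change of that size would fall outside the interval.

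**Figure D1:**
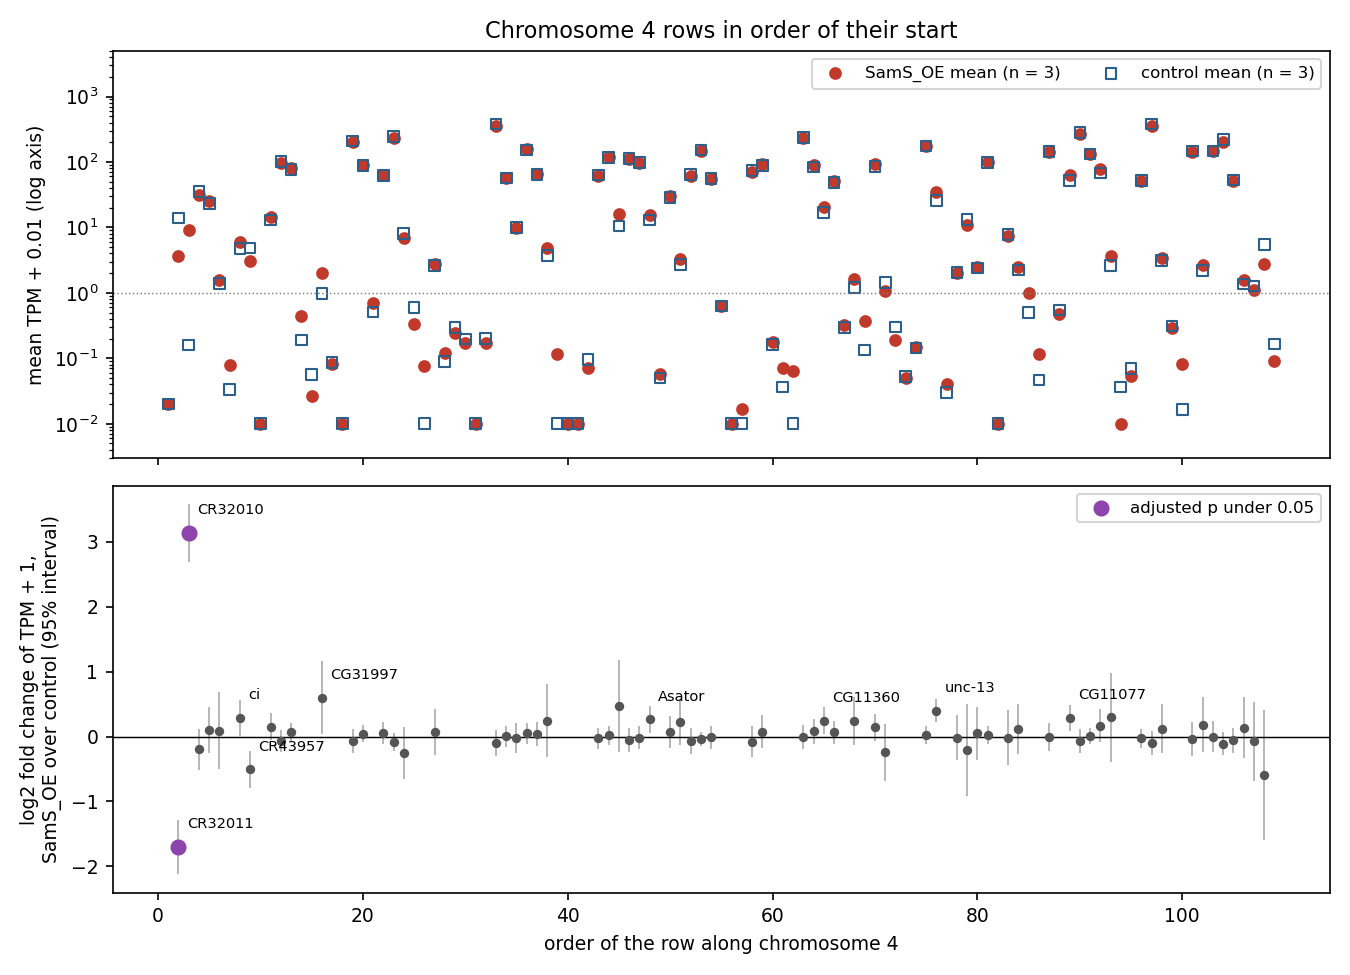
All 109 chromosome 4 rows in order of their start; the upper panel gives the mean TPM of SamS_OE and control samples (n = 3 each, 0.01 added, log axis, dotted line at 1 TPM), and the lower panel the log2 fold change of TPM + 1 of the 68 rows tested with its 95% interval. CR32010 at 3.14 and CR32011 at -1.70 stand apart at the left end, and the other 66 rows lie between -0.60 and 0.60.

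The 2 changed rows are neighbours in a cluster of similar pseudogenes at the left end of the chromosome. In the table's coordinates, which match BDGP6.54 (Release 6) there, CR32011 (FBgn0052011) spans chromosome 4 from 5829 to 11765, CR32010 (FBgn0052010) from 12640 to 25054, and CR32009 (FBgn0052009) from 27020 to 31633, all on the minus strand. CR32010 and CR32011 each have 5 exons, and in both the second exon is 336 bp, the last but one 183 bp, the first intron 54 bp and the second intron 58 bp. Their first exons are 3053 bp in CR32010 and 3036 bp in CR32011, and the exons ahead of that 183 bp exon are 584 bp in CR32010 and 537 bp in CR32011. The spliced lengths, 4261 and 4342 bp for the transcripts of CR32010 and 4194 and 4305 bp for those of CR32011, are nearly equal. The intron before the 183 bp exon differs most in length. It measures 7464 bp in CR32010, where an annotated McClintock retrotransposon of 6438 bp lies from 13649 to 20086 on the plus strand, and 1021 bp in CR32011.

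CR32009 has the same build from its last exons on. Its second intron is also 1021 bp, its last but one exon 183 bp, and the exon before that intron 584 bp, as in CR32010, although its first exon is only 2085 bp. A fragment of the element INE-1, 138 bp long, starts 73 bp beyond the 5′ end of both CR32011 and CR32009. Beyond the 5′ end of CR32010 the nearest annotated element is a 1360 of 1101 bp on the minus strand, starting at 80 bp. Sequence identity between the copies was not analysed here, and the likeness rests on annotated lengths alone. How the authors assigned reads that fit more than 1 copy is not given in the sources used here, and the levels of the 3 pseudogenes are uncertain for that reason.

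**Figure D2:**
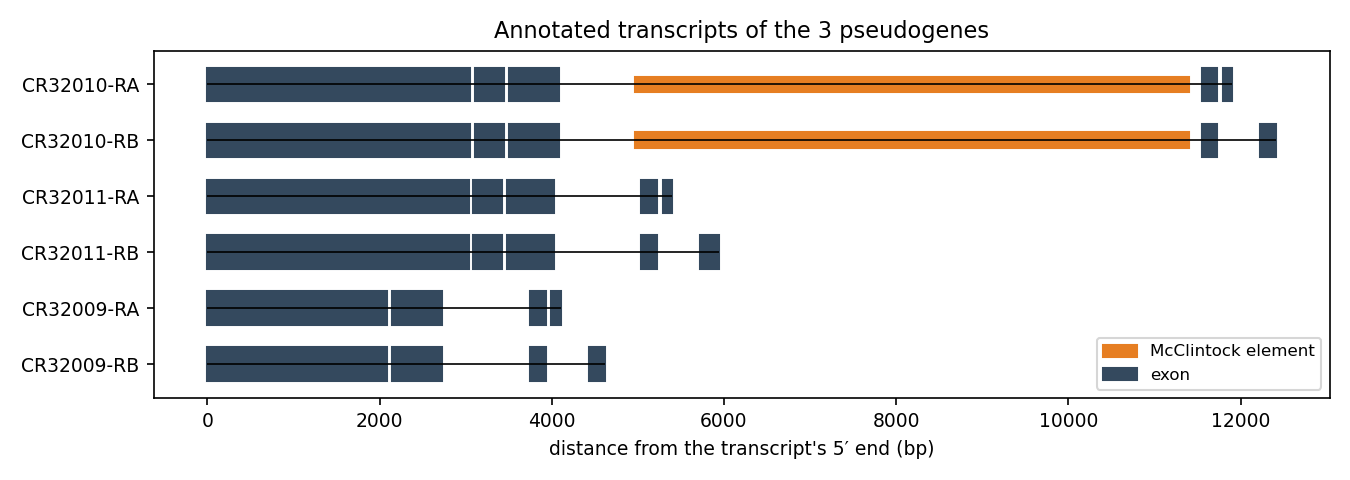
Annotated transcripts of CR32010, CR32011 and CR32009, drawn to scale by distance in bp from each transcript's 5′ end; dark boxes are exons, lines are introns and the orange box is the McClintock element. The exon pattern repeats between the pseudogenes, and the 7464 bp intron of CR32010 holds the 6438 bp element.

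CR32010 was higher in SamS_OE ovaries. It had 8.04, 9.22 and 9.68 TPM in SamS_OE samples 1, 2 and 3, and in the control samples it was listed at 0, 0.45 and 0 TPM. The groups did not overlap, and the row passed the filter on low values only through the SamS_OE samples. Its log2 fold change was 3.14 (SE 0.19, limma adjusted p = 0.000365), and within the labelled batches 1, 2 and 3 the difference was 3.18, 2.82 and 3.42. With a pseudocount of 0.1 the log2 fold change was 5.68, as the size depends on what is added to a level near 0. In the authors' deposited table its log2 fold change was 5.82.

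CR32011 was lower in the same SamS_OE samples. It had 3.14, 2.78 and 5.13 TPM in SamS_OE samples, against 14.7, 14.4 and 12.6 TPM in control samples. The SamS_OE values lay below all control values, at 26.5% of the control mean. The log2 fold change was -1.70 (SE 0.18, limma adjusted p = 0.00908), and within batches 1, 2 and 3 it was -1.92, -2.03 and -1.15. The call was lost with no filter on low values (limma adjusted p = 0.0684), without control replicate 1 (0.0843) and without control replicate 2 (0.0538). In the authors' deposited table the log2 fold change was -1.91.

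Added together, the 2 rows did not separate the groups. Their sum was 11.2, 12 and 14.8 TPM in SamS_OE samples, and 14.7, 14.8 and 12.6 TPM in control samples, so the ranges overlapped. The sum averaged 12.7 ± 1.90 TPM in SamS_OE and 14.1 ± 1.23 TPM in control samples (SD, n = 3 each), and whether it differed was not tested. The split between the 2 names did separate the groups. CR32010 made up 71.9%, 76.8% and 65.4% of the sum in SamS_OE samples, and 0%, 3.03% and 0% in control samples. CR32009 was the most abundant, with 28.4, 26.2 and 39.8 TPM in SamS_OE samples and 36.2, 35.0 and 35.7 TPM in control samples. Its SamS_OE values lay on both sides of the control values, and its log2 fold change was -0.20 (SE 0.14, limma adjusted p = 0.918). The part that the splitting of reads between copies plays in these values was not tested.

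**Figure D3:**
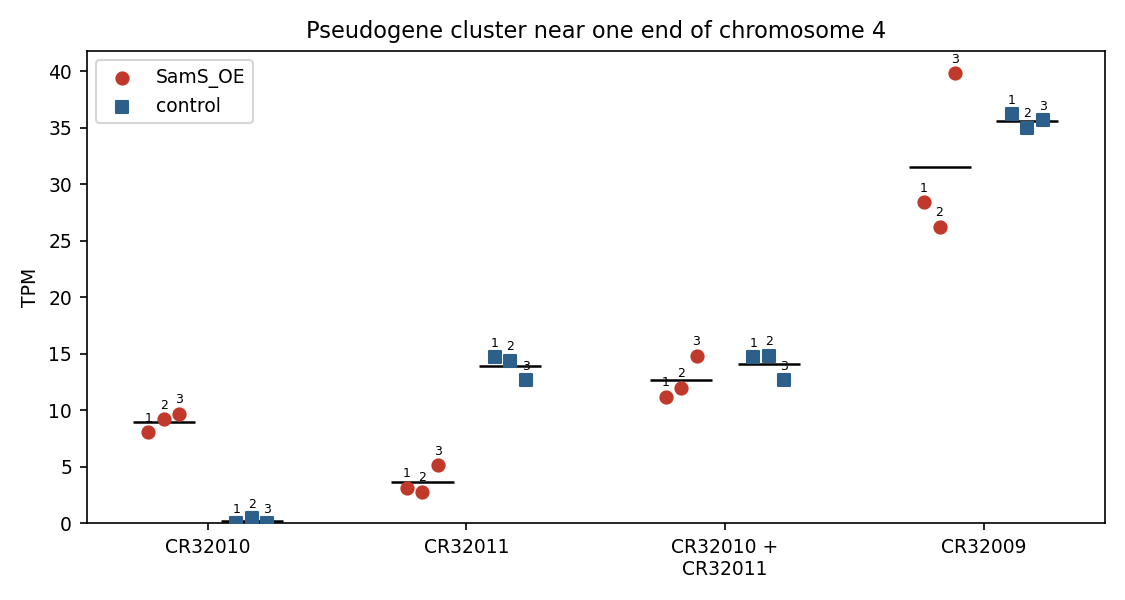
TPM of CR32010, CR32011, their sum and CR32009 in each SamS_OE and control sample; small numbers are replicates and bars are group means (n = 3 each). CR32010 and CR32011 separate the groups in opposite directions, while the sum, 11.2 to 14.8 TPM in SamS_OE and 12.6 to 14.8 TPM in control, overlaps.

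Of the other rows within 50000 bp of the pair, CR32009, PlexB, CR45124, pan, ci and CR43957 were tested and were not called, and JYalpha, CR44440 and snoRNA:CD-24 were too low to be tested. The values of ci and CR43957 follow with those of other rows with a small unadjusted p. JYalpha, an Na,K-ATPase alpha subunit gene needed for sperm function, lies at the left tip and had at most 0.03 TPM in any sample. PlexB, a semaphorin receptor gene, had 21.2, 31.9 and 23.2 TPM in SamS_OE samples and 23.5, 20.4 and 26.2 TPM in control samples, and the groups overlapped. The noncoding RNA CR45124, antisense to PlexB, averaged 1.57 TPM in SamS_OE and 1.39 TPM in control samples. CR44440 stayed at or below 0.07 TPM, and snoRNA:CD-24 was listed at 0 throughout. The gene pan, for the TCF transcription factor of the Wnt pathway, averaged 14.4 ± 0.45 TPM in SamS_OE and 12.9 ± 1.202 TPM in control samples (SD, n = 3 each), and the log2 difference was 0.15 (limma adjusted p = 0.884).

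A further gene, unc-13, was called in the authors' deposited table but not here. It encodes a protein that primes synaptic vesicles for release in neurons, spans 867824 to 912331 on the minus strand, and holds 15 annotated elements. It had 31.3, 36.9 and 35.7 TPM in SamS_OE samples, against 26.7, 25.5 and 25.9 TPM in control samples. Every SamS_OE value lay above every control value, and the group means differed 1.33-fold. The log2 fold change was 0.40 (SE 0.08, limma adjusted p = 0.142), and without SamS_OE replicate 1 it was 0.46 with an adjusted p of 0.0481. In the authors' deposited table the log2 fold change of unc-13 was 0.42 with an FDR of 2.67e-06. That table called 3 of the 109 rows, CR32010, CR32011 and unc-13, against 0.699% of all its rows. The 4 neuron markers summed to 0.49 to 0.54 TPM in SamS_OE and 0.33 to 0.40 TPM in control samples. Their sum was thus higher in SamS_OE without overlap, like unc-13, but far below its level and below the filter. Most of that sum was elav, which averaged 0.46 TPM in SamS_OE and 0.28 TPM in control samples. The marker brp averaged 0.04 TPM in SamS_OE and 0.02 TPM in control samples. Lower in SamS_OE were nSyb and Syt1, at 0.01 and 0 TPM, against 0.05 and 0.01 TPM in control samples. The part of neurons in the values of unc-13 was not tested.

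Antisense to unc-13 lie the pseudogene CR43361 and the noncoding RNAs CR44029 and CR43425, whose exons overlap those of unc-13 by 1463, 705 and 3528 bp. CR43361 had a log2 fold change of -0.21 and CR44029 one of -0.02, and CR43425 was at most 0.09 TPM. The libraries were stranded, but whether counting used the strand is not given in the sources used here, so reads of overlapping partners may be mixed. In all, 44 of the 109 rows overlapped a row on the other strand and 3 overlapped one on the same strand.

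Beyond the changed pair, 7 rows had an unadjusted p under 0.05 in limma and an adjusted p between 0.142 and 0.736, so none of them is called. Counting the pair, 7 of 68 were on the higher side, where 3.62% of all rows tested were, and 2 on the lower side, where 2.97% were. The groups did not overlap in 8 rows with SamS_OE above control, against 6.25% of all rows tested, and in 2 with SamS_OE below, against 5.6%. The 10 are 9 rows with an unadjusted p under 0.05 and bt. Both higher counts include CR32010 and CG31997, which passed the filter on low values only through the SamS_OE samples.

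The pair ci and CR43957 lie side by side on opposite strands, with 53 bp of shared exon sequence. The gene ci encodes the transcription factor at the end of the Hedgehog pathway. It had 5.94, 5.79 and 6.25 TPM in SamS_OE samples and 4.75, 5.28 and 4.22 TPM in control samples, with the SamS_OE values all above. Its log2 fold change was 0.29 (SE 0.12, limma adjusted p = 0.736). The noncoding RNA CR43957 had 3.23, 3.29 and 2.81 TPM in SamS_OE samples and 4.99, 4.89 and 4.59 TPM in control samples, with the SamS_OE values all below. Its log2 fold change was -0.50 (SE 0.12, limma adjusted p = 0.356).

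Of the rest, Asator, a relative of the tau tubulin kinases, had 15.8, 16.3 and 14.9 TPM in SamS_OE samples and 14, 11.99 and 12.7 TPM in control samples (log2 fold change 0.26, limma adjusted p = 0.578). CG11360 had 18.5, 22.4 and 20.0 TPM in SamS_OE samples and 17.9, 16.2 and 16.8 TPM in control samples (log2 fold change 0.24, limma adjusted p = 0.635). CG11077 had 62.8, 63.8 and 64.0 TPM in SamS_OE samples and 53.8, 57.9 and 44.9 TPM in control samples (log2 fold change 0.29, limma adjusted p = 0.524). In these 3 genes every SamS_OE value lay above every control value, and the differences were smaller than that of unc-13. CG31997 lay near the filter, with 2.51, 1.28 and 2.22 TPM in SamS_OE samples and 1.25, 1.16 and 0.52 TPM in control samples, and like CR32010 it passed only through the SamS_OE samples (limma adjusted p = 0.692). The gene bt encodes projectin, a giant protein of muscle. It had 1.76, 1.5 and 1.55 TPM in SamS_OE samples and 1.29, 1.17 and 1.15 TPM in control samples, and the log2 difference was 0.24 (limma adjusted p = 0.909). In the authors' deposited table its FDR was 0.0633. All 6 muscle markers had a positive log2 fold change, from 0.05 to 0.29, with a lowest limma adjusted p of 0.8004. The 4 tested follicle cell markers were positive too, from 0.01 to 0.17, so this direction was not particular to muscle. The part of the muscle sheath in the values of bt was not tested.

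**Figure D4:**
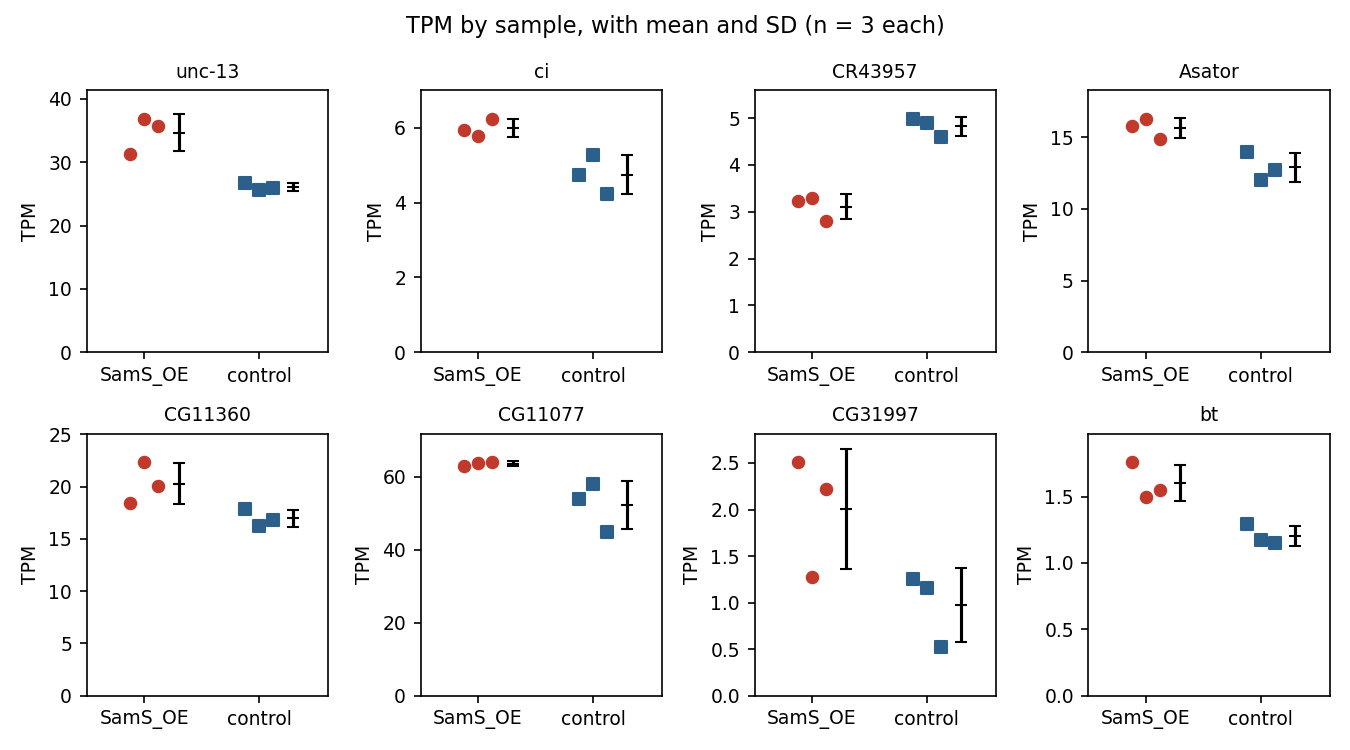
TPM of unc-13, ci, CR43957, Asator, CG11360, CG11077, CG31997 and bt in each SamS_OE and control sample, with the group mean and SD (n = 3 each), each axis starting at 0. Shown are the rows outside the called pair with an unadjusted p under 0.05, and bt, whose groups do not overlap. The groups do not overlap in any of the 8, and 0 of the 8 passed an adjusted p of 0.05. As the rows were picked on these values, neither is an added result.

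The genes were also grouped into 8 lists by role. Of their tested genes 0 were called changed, against 0.28% of all rows tested, a share at which lists of this size would hold hardly any, so values are given. All 3 tested secreted ligand genes were abundant. These were mav and myo, which encode ligands of the TGF-beta family, at 93.5 ± 14.5 and 50.4 ± 3.26 TPM in SamS_OE and 88.2 ± 5.68 and 48.2 ± 3.57 TPM in control samples, and Ephrin, a membrane-bound ligand, at 55.7 ± 3.47 TPM in SamS_OE and 56.2 ± 4.73 TPM in control samples (SD, n = 3 each). The activin gene Actbeta, did not exceed 0.06 TPM. Among the receptors, Eph, which binds Ephrin, averaged 69.7 ± 7.42 TPM in SamS_OE and 73.6 ± 8.59 TPM in control samples, and the semaphorin receptor PlexA 142.7 ± 15.4 TPM in SamS_OE and 143.3 ± 12.5 TPM in control samples (SD, n = 3 each). The glutamate receptor gene mGluR was at 2.49 TPM in SamS_OE and 2.40 TPM in control samples. PlexB is described above. Median log2 fold changes of the ligand and receptor lists were 0.06 and 0.02, against -0.01 for all rows tested.

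Of the intracellular signalling genes, Crk and PMCA were among the 10 rows with the highest mean level. Crk, an adaptor of tyrosine kinase signalling, averaged 230.3 ± 13.9 TPM in SamS_OE and 244.2 ± 14.2 TPM in control samples (SD, n = 3 each). The calcium pump gene PMCA averaged 158.4 TPM in SamS_OE and 152.9 TPM in control samples, the lipid kinase gene PIP4K 147.5 TPM in SamS_OE and 147.2 TPM in control samples, and the calcium-dependent kinase gene CaMKII 132.1 TPM in SamS_OE and 131.5 TPM in control samples. Of the 7 genes of this list on the chromosome 6 were tested, with log2 fold changes from -0.08 to 0.26. The kinase gene Dyrk3 averaged 51.0 TPM in SamS_OE and 53.1 TPM in control samples, and RhoGAP102A, at 0.24 TPM in SamS_OE and 0.29 TPM in control samples, was not tested.

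Transcription factor and chromatin genes spanned the whole range of levels. Abundant ones were Mitf, a regulator of lysosomal genes, at 203.5 ± 17.3 TPM in SamS_OE and 219.7 ± 16.04 TPM in control samples, and pho, which encodes a DNA-binding Polycomb group protein, at 144.5 ± 22.7 TPM in SamS_OE and 147.7 ± 13.5 TPM in control samples (SD, n = 3 each). The Mediator subunit gene MED26 averaged 94.0 TPM in SamS_OE and 85.0 TPM in control samples. The chromatin cofactor gene Hcf averaged 66.4 TPM in SamS_OE and 64.5 TPM in control samples, and lgs, a partner of beta-catenin in Wnt signalling, 61.9 TPM in SamS_OE and 63.0 TPM in control samples. The Pax genes ey, toy and sv, the homeobox genes zfh2 and onecut, the forkhead gene fd102C and NfI each averaged under 1 TPM and were not tested. Low but tested were dati, fuss and Sox102F, at 4.78, 2.48 and 1.07 TPM in SamS_OE and 3.73, 2.22 and 1.44 TPM in control samples. Among the 10 tested of this list log2 fold changes ran from -0.24 to 0.29, with 6 above and 4 below 0.

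In each of the 3 RNA control genes the means of the groups differed by less than the SD of the SamS_OE samples. The gene gw, which encodes the GW182 protein of microRNA silencing, averaged 233.8 ± 22.2 TPM in SamS_OE and 234.2 ± 16.9 TPM in control samples (SD, n = 3 each), and its 95% interval reached 0.18 on either side of a log2 fold change of -0.00. The gene 4E-T, for a protein that binds the cap-binding factor and represses translation, averaged 99.8 ± 4.71 TPM in SamS_OE and 98.6 ± 5.67 TPM in control samples. Pur-alpha, for a nucleic acid binding protein, averaged 61.5 ± 7.01 TPM in SamS_OE and 64.3 ± 2.66 TPM in control samples. Gyf, outside this list but among the 10 rows with the highest mean level, averaged 177.3 TPM in SamS_OE and 174.2 TPM in control samples.

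Synaptic genes were mostly near 0, apart from unc-13 and Cals, a calsyntenin gene at 50.7 ± 2.69 TPM in SamS_OE and 51.8 ± 2.45 TPM in control samples (SD, n = 3 each). Cadps averaged 1.58 TPM in SamS_OE and 1.35 TPM in control samples, and Syt7, dpr7, Gat and Ekar each averaged under 1 TPM. Traffic genes were abundant: Arf102F, for an Arf-type GTPase, averaged 357.4 ± 39.8 TPM in SamS_OE and 382.0 ± 22.9 TPM in control samples, and Arl4 198.4 ± 17.3 TPM in SamS_OE and 208.4 ± 17.6 TPM in control samples. The ankyrin gene Ank averaged 97.1 TPM in SamS_OE and 102.1 TPM in control samples. Slip1 averaged 88.9 TPM in SamS_OE and 84.1 TPM in control samples, and Zyx, for the adhesion protein zyxin, 76.7 TPM in SamS_OE and 67.8 TPM in control samples.

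In the list of metabolism, repair and transport, Rad23, which acts in nucleotide excision repair and protein turnover, averaged 358.3 ± 38.4 TPM in SamS_OE and 382.2 ± 30.2 TPM in control samples (SD, n = 3 each). ND-49, for a subunit of respiratory complex I, averaged 147.9 ± 5.73 TPM in SamS_OE and 151.9 ± 5.08 TPM in control samples. The zinc transporter gene Zip102B averaged 57.3 TPM in SamS_OE and 57.1 TPM in control samples, and the DNA glycosylase gene Thd1 30.5 TPM in SamS_OE and 28.9 TPM in control samples. The gene yellow-h was not tested, at 0.32 TPM in SamS_OE and 0.58 TPM in control samples. The lipoprotein gene apolpp, which is active in fat body, had 2.49, 2.35 and 6.04 TPM in SamS_OE and 3.29, 2.52 and 1.96 TPM in control samples, with 1 high SamS_OE sample. Fat body markers summed to at most 0.09 TPM in SamS_OE and 0.13 TPM in control samples. CG11076, outside this list but also among the 10 highest rows, averaged 270.5 TPM in SamS_OE and 282.2 TPM in control samples.

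**Figure D5:**
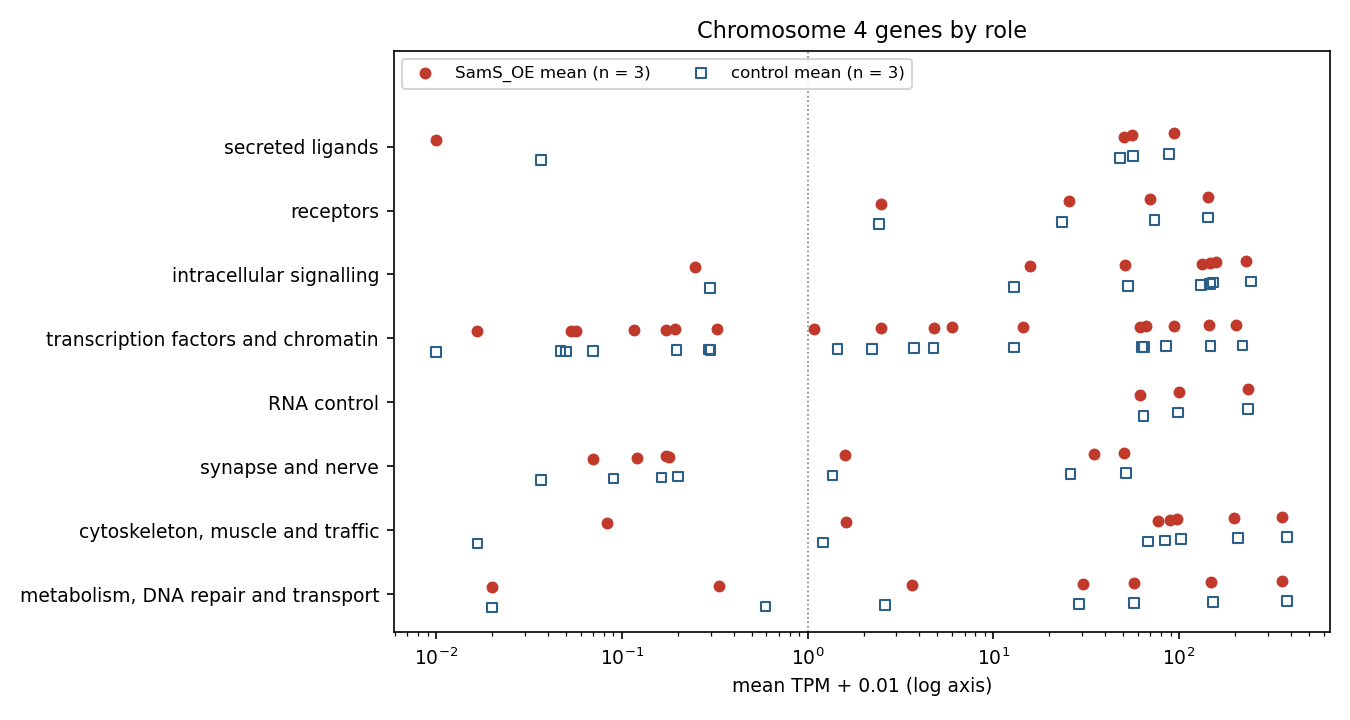
Mean TPM of chromosome 4 genes by role in SamS_OE (filled circles) and control samples (open squares, n = 3 each), with 0.01 added and a log axis; the dotted line marks 1 TPM. Above 1 TPM the levels of the groups lie next to each other.

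Along the chromosome, in windows of 250000 bp, the summed level showed no stretch that stood apart between the groups among the first 5 windows. From 1 to 250000 the rows summed to 869.6 ± 53.1 TPM in SamS_OE and 891.3 ± 40.7 TPM in control samples (SD, n = 3 each). The next window summed to 1075 ± 86.5 TPM in SamS_OE and 1086 ± 61.4 TPM in control samples, and the one after it to 858.5 ± 58.9 TPM in SamS_OE and 851.6 ± 43.3 TPM in control samples. The window from 750001 to 1000000 summed to 434.0 ± 26.9 TPM in SamS_OE and 413.9 ± 25.5 TPM in control samples, and the one from 1000001 to 1250000 to 1652 ± 163 TPM in SamS_OE and 1689 ± 91.4 TPM in control samples. Median log2 fold changes of these 5 windows ran from -0.00 to 0.07, and both changed rows lay in the first.

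The right end holds only HeT-A rows, the retrotransposon that builds the telomeres of this fly. From 1282540 to 1301833 on the minus strand, 3 HeT-A rows summed to 3.12, 4.17 and 4.38 TPM in SamS_OE samples and 6.36, 2.32 and 12.1 TPM in control samples. The control samples spread over a wide range that included every SamS_OE value. The row from 1295016 to 1296989 had 2.22, 2.78 and 3.17 TPM in SamS_OE samples and 5.37, 1.62 and 9.50 TPM in control samples, and the log2 difference was -0.60 (SE 0.44, limma adjusted p = 0.925). HeT-A is a family of similar copies, which leaves the level of each such row uncertain.

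The rows also differed between replicates of a group. The median deviation of the 68 rows from their own means was -0.09 in SamS_OE replicate 1 and 0.09 in SamS_OE replicate 3 on the log2 scale, against -0.05 and 0.02 in the same samples for all rows tested. SamS_OE replicate 1 was the lowest sample in 23 of the 68 rows (33.8%, against 40.1% of all rows tested) and control replicate 2 in 19 (27.9%, against 18.8%). Control replicate 3 was the lowest in 16 (23.5%, against 10.7%), whereas SamS_OE replicate 3 was the lowest in 1 (1.47%, against 11.1%). The median log2 fold change of the 68 rows was 0.02, with quartiles at -0.06 and 0.12. For all rows tested it was -0.01, with quartiles at -0.07 and 0.05. Of the 68, 37 had a value above 0 and 31 below, and 44.0% of all rows tested were above.

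Regulators of chromosome 4 that lie elsewhere in the genome were all expressed. Of the 7, 0 were called changed, against 0.28% of all rows tested, and a count of 0 among so few says nothing particular about them. Pof averaged 50.8 ± 4.25 TPM in SamS_OE and 55.1 ± 5.09 TPM in control samples, and the gene for HP1a 390.0 ± 26.3 TPM in SamS_OE and 405.8 ± 16.2 TPM in control samples (SD, n = 3 each). The methyltransferase gene egg averaged 45.6 ± 2.38 TPM in SamS_OE and 46.5 ± 3.52 TPM in control samples, and its partner gene wde 60.1 ± 3.56 TPM in SamS_OE and 60.6 ± 8.20 TPM in control samples. Log2 fold changes of the 7 ran from -0.11 for Pof to 0.08 for JIL-1, a histone kinase gene, and the lowest adjusted p in limma was 0.933. Su(var)3-7, which encodes an HP1a partner, and Su(var)3-9, another histone H3 lysine 9 methyltransferase gene, were also within that range.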

How the data were processed

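PolyA RNA of ovaries was sequenced from TruSeq stranded libraries, per the labels' protocols. The authors deposited 1 table of 17457 rows with TPM per sample, rounded to 2 decimals and not pooled, per the file headers. The submitters' processing notes name STAR; the counting method, the build and the annotation are not given in the sources used here. Columns for the authors' own comparison are in it too, per the file headers: log2 fold change, average log2 CPM, p-value, FDR. No value column was left without a sample. Coordinates, symbols and IDs are those of the table; 105 of the 109 chromosome 4 rows have the same coordinates in Ensembl's BDGP6.54 annotation, which gave gene types, exons and transposable elements. The other 4 are gw and the 3 HeT-A rows.

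TPM was tested as log2(TPM + 1) with limma 3.58.1 in R 4.3.3 (lmFit, eBayes with trend, group as the only term, all 6 samples) on the 7855 rows with a mean of at least 1 TPM. A row was called at a two-sided Benjamini-Hochberg adjusted p under 0.05. On simulated data for the 7855 features with 200 changed, the fit recovered 57% of changes of 0.5 and 97.5% of changes of 2 on the log2 scale. The fit of the real data called 22 rows. Recovery with fewer than 200 changed features was not simulated, so these shares may not hold for these data. Python 3.11.15 and matplotlib 3.10.9 were used for the rest. Beside the replicate number in its title, each sample has a batch entry of the same number among the labels' characteristics. By these labels the samples of the groups are paired. Deviations of same-numbered samples correlated at -0.06, -0.06 and 0.215. Those of samples with different numbers correlated at -0.228 to 0.259, a range that includes the same-numbered values. Alternatives were a pseudocount of 0.1, no filter, a minimum mean of 5 TPM, scaling by a trimmed mean, quantile normalization, the batch as a block, no trend, and leaving out each sample.

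The members and lists were chosen with earlier results of these data known. Named were the pair CR32010 and CR32011, rows within 50000 bp of it, rows with an adjusted or unadjusted p under 0.05 or a deposited FDR under 0.05, the 10 highest by mean TPM, and the role, marker and regulator lists. The genes bt and sphinx were also singled out after their values were seen.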

Additional observations from a re-analysis of the deposited data

How the results depend on the processing

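The count of changed chromosome 4 rows was 2 (1 higher, 1 lower) and stayed so with a pseudocount of 0.1, under both scalings and without the trend. With no filter on low values it was 1, CR32010, with 0 lower, and with a minimum mean of 5 TPM it was 1, CR32011, with 0 higher, because CR32010 was not tested there. With each of the 6 samples left out in turn the count ran from 1 to 3, with 1 to 2 higher and 0 to 1 lower; the third row was unc-13 without SamS_OE replicate 1. The replicate block kept the count at 2, with CR32010 and CR32011, and changed no other call on the chromosome. The log2 fold change of CR32010 stayed between 3.05 and 5.68 and that of CR32011 between -1.94 and -1.56. The adjusted p of CR32010 lay between 0.000529 and 0.0148 over 12 alternatives, and that of CR32011 between 0.00199 and 0.0843 over 13. For unc-13 it lay between 0.0481 and 0.487. The median log2 fold change of the rows ran from -0.02 to 0.07, and the difference in TPM share from -0.02 to 0.02 percentage points. Of 50 named rows tested, 0 reversed while called. Why the count moved between these fits was, apart from the stricter filter, not tested. The depth of the libraries is unknown, so the noise of rows near 1 TPM cannot be set against counting error.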
